A study of Mus musculus with 6 samples.

Results

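Gli2 and Gli3 are the zinc finger transcription factors that answer the hedgehog signal, and Sufu, Kif7 and Gpr161 are 3 proteins that set what the pair does when no signal is present. Their transcripts were followed in neuralized embryoid bodies, which are clusters of mouse embryonic stem cells kept afloat and steered to neural fates, from an array table of 45037 probe sets other than controls. The 5 genes were chosen as all probe sets that the platform annotation pairs with 1 of these symbols alone, which gave 11 probe sets. They are 3 for Gli3, 3 for Sufu, 2 for Gli2, 2 for Gpr161 and 1 for Kif7. Of 18193 genes in the table, these are 5.

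The RA + Ag1.3 cultures were given all-trans retinoic acid (RA) at 500 nM together with 50 nM Ag1.3, which activates Smoothened, the transducer of the hedgehog signal at the membrane. The RA cultures were given 500 nM RA alone. Both treatments lasted 3 days and began after 2 days in suspension, with 3 cultures in each group, and the design text describes the cultures as parallel ones paired by replicate number. All 6 cultures came from 1 stem cell line with a transgene for FLAG-tagged Gli1 driven by the constitutive Rosa26 promoter, so the control cultures also carried added Gli1. Each culture was read on 1 Affymetrix expression array, in which a probe set is a group of short probes for 1 transcript. Array medians lay between 48.8 and 52.5 intensity units with Ag1.3 and between 48.7 and 51.9 in RA.

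As background, vertebrate Gli proteins exist as activators and as shortened repressors. Without hedgehog ligand, protein kinase A phosphorylates Gli2 and Gli3, which marks them for partial degradation, and Gli3 in particular is left as a repressor. Gpr161, a receptor of the primary cilium, keeps cAMP and protein kinase A active there. Sufu binds Gli proteins and holds them inactive, and Kif7, a kinesin, organises the tip of the cilium where Gli and Sufu collect on signalling. In the spinal cord Gli3 is known mainly as the repressor that limits ventral gene programmes, and Gli2 as the main activator. The array reads RNA, so none of these protein steps was measured.

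Gli3 was the 1 member of the 5 that passed the threshold for a change with Ag1.3, and it was lower. In limma's test over all genes, with 1 probe set per gene and the pair as a block, 1 of 5 members passed an adjusted p threshold of 0.05, where 1.41% of all genes did. With every probe set tested, 2 of 11 passed, both of Gli3, where 0.515% of all probe sets did. Both lost that call without any 1 pair (limma adjusted p = 0.11 to 0.21), without the block (0.13 to 0.15) and with a pseudocount of 1 (0.23). The same 2 probe sets were those whose groups did not overlap, against 11.2% of all probe sets. The third Gli3 probe set, 1450525_at, had a log2 change of -0.15 (limma adjusted p = 0.642), and its groups overlapped. The 8 probe sets of the other genes had log2 changes between -0.09 and 0.08.

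The Gli3 probe set with the highest mean over all 6 arrays, 1456067_at, read 289, 268 and 208 in RA + Ag1.3 cultures 1 to 3. It read 729, 653 and 427 in RA cultures 1 to 3. The highest Ag1.3 value was below the lowest RA value, and the third RA culture was lower than the other RA cultures. Means were 255 ± 42.1 with Ag1.3 and 603 ± 157 in RA (SD, n = 3 each). With Ag1.3 alone another Gli3 probe set, 1450525_at, had the higher mean, at 283, so the RA arrays decided which was brightest. On 1456067_at the change was as follows. Gli3 was 2.25-fold lower with Ag1.3, a log2 change of -1.17 with SE 0.09 and a limma adjusted p of 0.0104. Throughout, fold and log2 changes are on the scale of log2(intensity + 16), and SE stands for the moderated standard error from limma. The 95% interval ran from 0.379 to 0.522 of the RA level. Within pairs 1, 2 and 3 the log2 change was -1.29, -1.24 and -0.98. Gli3 had the 19th largest decrease among the 59 genes that fell. The call did not hold without the replicate block (adjusted p = 0.125), with a pseudocount of 1 (0.12), without pair 1 (0.0647) or without pair 2 (0.0728) in limma's test, while the log2 change stayed between -1.26 and -1.11 when any 1 pair was left out.

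The Gli3 probe sets did not read alike. Probe set 1455154_at read 285, 265 and 211 with Ag1.3, against 716, 643 and 431 in RA. Its values were within 1.90% of those of 1456067_at on each array, and its log2 change was -1.16 (limma adjusted p = 0.0202 over all probe sets). The platform annotation names an expressed sequence tag as the source of each, and whether their probes overlap is not given in the sources used here, so the pair may not be independent readings. The third probe set, 1450525_at, has a reference mRNA as its source. It read 218, 351 and 281 with Ag1.3, against 279, 355 and 300 in RA. The groups overlapped, although the Ag1.3 value was the lower one in each of the 3 pairs. Its log2 change was -0.15 with a 95% interval from -0.39 to 0.10 (adjusted p = 0.642). The change of this probe set exceeded that of 1456067_at by 0.95, 1.22 and 0.89 in pairs 1, 2 and 3, a mean difference of 1.02 ± 0.17 (SD, n = 3; exact sign-flip permutation p = 0.25, two-sided). With 3 pairs, 0.25 is the smallest p this exact test can give. Where on the Gli3 transcript each probe set lies is not given in the sources used here.

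**Figure D1:**
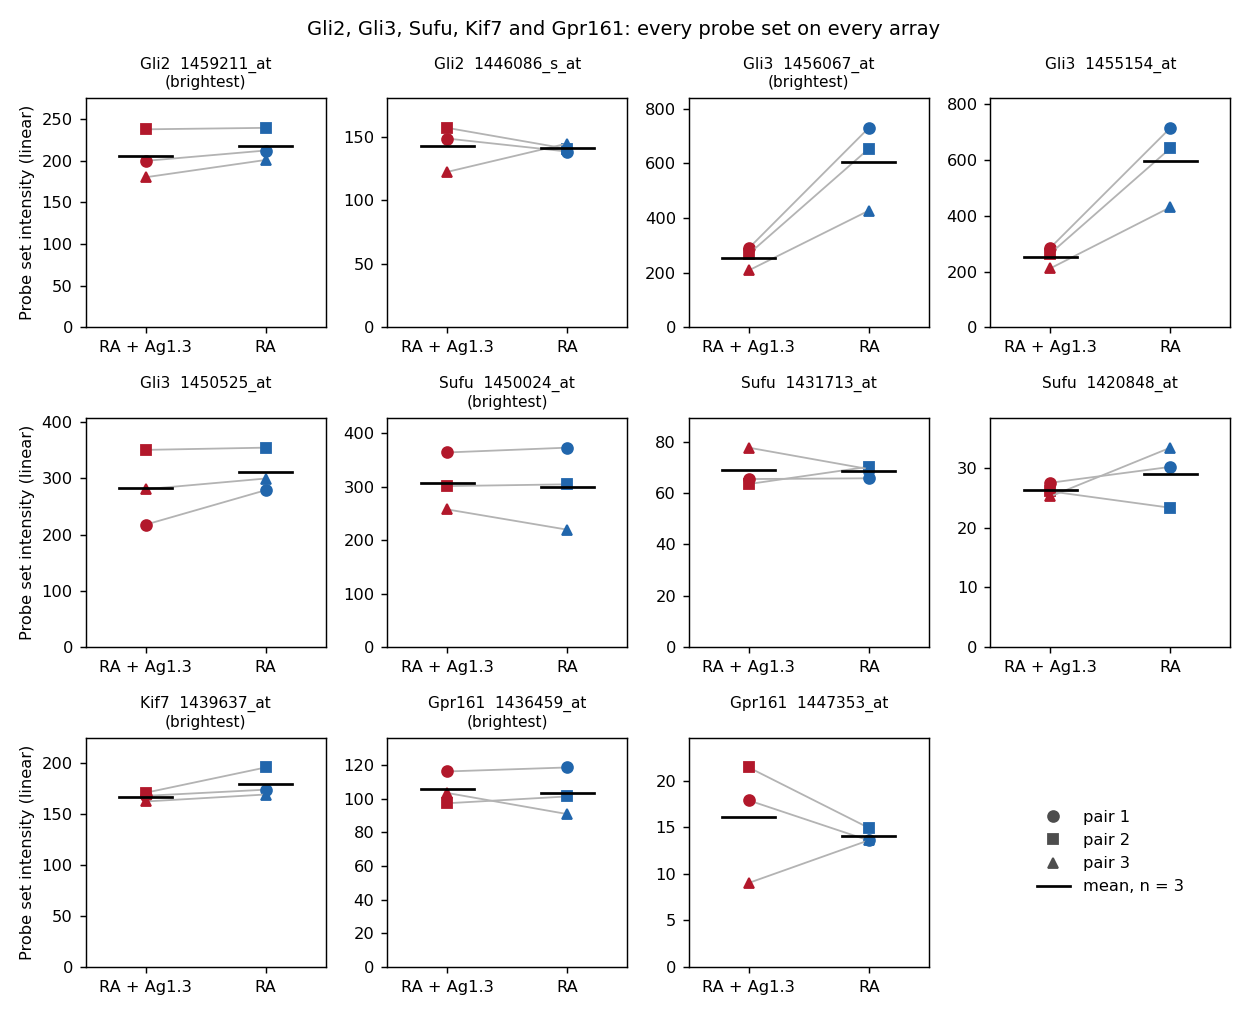
Probe set intensity (linear axis from 0) of the 11 probe sets of Gli2, Gli3, Sufu, Kif7 and Gpr161 in RA + Ag1.3 and RA cultures, with grey lines joining the cultures of a pair and black bars at the mean of 3. The 2 brighter Gli3 probe sets have all Ag1.3 values below all RA values, and in the other 9 the groups overlap.

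Gli2, the related factor, did not pass the threshold. Its brighter probe set, 1459211_at, read 200, 238 and 180 with Ag1.3, against 212, 239 and 201 in RA, and the groups overlapped. Means were 206 ± 29.2 with Ag1.3 and 217 ± 19.8 in RA (SD, n = 3 each). The log2 change was -0.08 with SE 0.08 (limma adjusted p = 0.706), and the 95% interval ran from 0.830 to 1.08 of the RA level. The Gli3 changes on 1456067_at and 1455154_at, to 0.445 and 0.447 of the RA level, lie outside that interval. The Gli3 change on 1450525_at, to 0.903, lies inside it. The second Gli2 probe set, 1446086_s_at, has the same source tag. It read 149, 157 and 123 with Ag1.3, against 139, 141 and 145 in RA, with a log2 change of 0.01. The sign differed between its pairs, since pairs 1 and 2 were higher with Ag1.3 and pair 3 was lower.

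Set against each other within pairs, the Gli3 change lay below the Gli2 change by 1.21, 1.23 and 0.84 on the log2 scale in pairs 1, 2 and 3. The mean difference of Gli3 minus Gli2 change was -1.09 ± 0.22 (SD, n = 3; exact sign-flip permutation p = 0.25, two-sided, the smallest possible). The scaling of arrays to each other largely cancels in such a difference. The same difference was -1.22 against Sufu, -1.08 against Kif7 and -1.20 against Gpr161, with Gli3 lower in 3 of 3 pairs each time. These differences hold for that Gli3 probe set. Probe set 1450525_at changed by -0.34, -0.02 and -0.09 in pairs 1, 2 and 3. Gli2 changed by -0.08, -0.01 and -0.15 there, so the sign of that difference was not the same in all pairs.

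The windows at the annotated starts of both Gli genes are printed because the genes are close relatives with different changes on the probe sets chosen for them. They run from 250 bases before to 50 bases after the start, are from RefSeq on GRCm38.p6, and are written along the gene's strand. The Gli2 window is chr1:119053570-119053869 on the minus strand and the Gli3 window is chr13:15463473-15463772 on the plus strand.
Gli2: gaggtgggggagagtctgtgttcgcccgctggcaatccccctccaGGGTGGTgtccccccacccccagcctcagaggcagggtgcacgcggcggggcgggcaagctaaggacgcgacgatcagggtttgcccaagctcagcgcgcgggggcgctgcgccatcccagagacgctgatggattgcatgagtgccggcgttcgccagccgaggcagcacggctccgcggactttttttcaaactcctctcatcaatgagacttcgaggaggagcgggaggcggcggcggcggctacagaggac
Gli3: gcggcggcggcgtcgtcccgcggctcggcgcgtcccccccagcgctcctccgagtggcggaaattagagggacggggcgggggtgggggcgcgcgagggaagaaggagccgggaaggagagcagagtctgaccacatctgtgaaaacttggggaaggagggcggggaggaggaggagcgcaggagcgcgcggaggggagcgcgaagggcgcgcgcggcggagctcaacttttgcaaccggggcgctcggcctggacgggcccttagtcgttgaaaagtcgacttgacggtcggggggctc
Capitals mark the core GGGTGGT, the reverse complement of ACCACCC, which lies inside the known Gli binding motif GACCACCCA. Both strands were searched for the full motif and for the core, and a full match also counts as a core match. The Gli2 window held 1 core match, beginning 205 bases before the start, and the Gli3 window held 0. The full motif was in 0 of the 6 windows of the 5 genes, and 0.253% of all 32851 windows held it. The core was in 1 of the 6 and in 4.61% of all windows. GC content was 67.3% in the Gli2 window and 71.0% in the Gli3 window, against a median of 52.7% over all windows. The Gli2 window held 28 CpG sites and the Gli3 window 39, against a median of 7 over all windows. A match in these letters is a description of the window and no evidence of binding.

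Sufu, the inhibitor that binds both Gli proteins, differed more between pairs than between treatments on its brightest probe set. Its brightest probe set, 1450024_at, read 364, 301 and 258 with Ag1.3, against 373, 304 and 220 in RA. Both groups had the first culture highest and the third lowest, and they overlapped. Means were 308 ± 53.5 with Ag1.3 and 299 ± 76.8 in RA (SD, n = 3 each). The log2 change was 0.06 with SE 0.09 and a 95% interval from 0.894 to 1.21 of the RA level (limma adjusted p = 0.83). Within RA alone the highest value was 1.70 times the lowest. The Sufu change was below 0 without pair 3 (-0.02). With arrays scaled to the hybridization spikes, which moved the median of all genes to -0.16, it was -0.13. The dimmer Sufu probe sets had log2 changes of 0.00 for 1431713_at and -0.08 for 1420848_at. Probe set 1431713_at read 63.5 to 77.7 with Ag1.3 and 65.8 to 70.3 in RA. Probe set 1420848_at read 25.3 to 27.6 with Ag1.3 and 23.4 to 33.5 in RA. In neither was the order of the cultures shared between the groups.

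Kif7 read 168, 171 and 163 with Ag1.3, against 174, 196 and 169 in RA, on its single probe set 1439637_at. The Ag1.3 value was lower in 3 of 3 pairs, and the groups overlapped. Means were 167 ± 4.35 with Ag1.3 and 180 ± 14.2 in RA (SD, n = 3 each). The log2 change was -0.09 with SE 0.08, and the 95% interval ran from 0.820 to 1.07 of the RA level (limma adjusted p = 0.651).

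Gpr161 read 116, 97.2 and 103 with Ag1.3, against 118, 101 and 90.8 in RA, on probe set 1436459_at. Pairs 1 and 2 were slightly lower with Ag1.3 and pair 3 was higher. Means were 106 ± 9.64 with Ag1.3 and 103 ± 14.0 in RA (SD, n = 3 each). The log2 change was 0.03 with SE 0.08 and a 95% interval from 0.883 to 1.18 of the RA level (limma adjusted p = 0.915), and it was -0.04 without pair 3. With spike scaling it was -0.14, beside the median of -0.16. Its second probe set, 1447353_at, read 9.03 to 21.5 with Ag1.3 and 13.6 to 14.95 in RA. That is close to background, since 3 control probe sets without a matching spike read 4.02 to 20.7, and no direction is given for it.

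**Figure D2:**
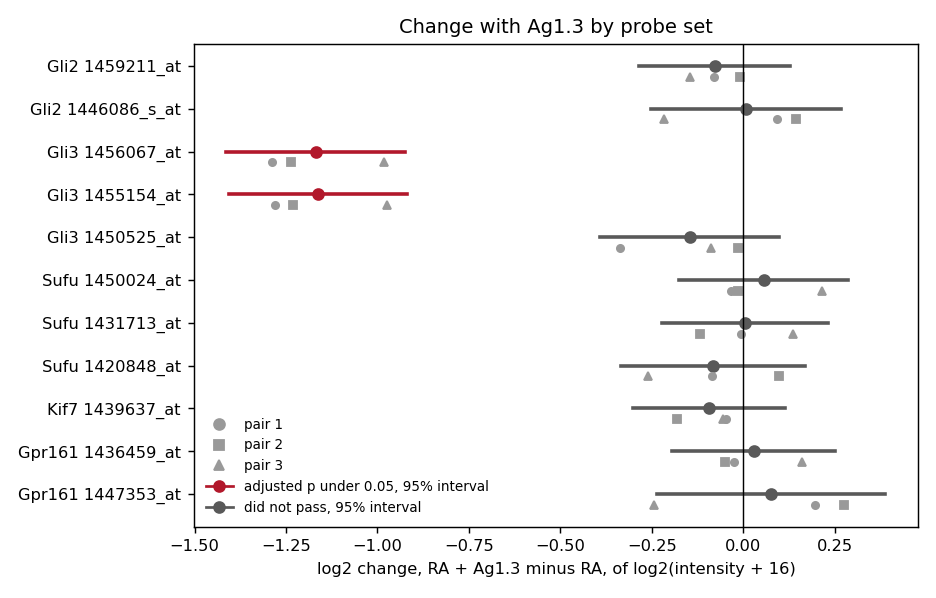
Log2 change with Ag1.3 (RA + Ag1.3 minus RA, on the log2(intensity + 16) scale) of each of the 11 probe sets, with limma's 95% interval as a bar and the 3 pairs as small grey symbols. The 2 brighter Gli3 probe sets lie at -1.17 and -1.16, and the intervals of the other 9 include 0.

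Genes that act with these 5 were taken from 6 lists of the pathway, from signal reception to Gli turnover. Of 68 measured genes outside the 5 members, 2 rose and 1 fell, where 1.08% of all genes rose and 0.324% fell, and their median log2 change was 0.03, against -0.01 over all genes. The read-out of the pathway was higher with Ag1.3. Ptch1, the hedgehog receptor and a direct Gli target, read 3413, 2834 and 4025 with Ag1.3, against 1123, 1304 and 2018 in RA, a log2 change of 1.23 with SE 0.13 (limma adjusted p = 0.0232). The groups did not overlap, and Ptch1 passed in 6 of 11 alternatives, none of them a fit without 1 pair or without the block. Gli1, the Gli gene that is itself a target, read 406, 265 and 322 with Ag1.3, against 110, 96.4 and 211 in RA. All 3 pairs were higher with Ag1.3, without passing the threshold (log2 change 1.21, limma adjusted p = 0.0795), and Gli1 passed in 4 of 11 alternatives. Its signal cannot be split between the endogenous gene and the transgene, since the probes' place on the transcript is not given in the sources used here.

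In the list of Gli and Gli-similar genes, Gli3 fell as the 1 of 6 that passed. An unadjusted p under 0.05 was reached by 4 of the 6, against 14.9% of all genes. Besides Gli3 these were Glis3, which was lower (log2 change -0.87, limma adjusted p = 0.0811), and Gli1 and Glis2, which were higher. Glis2 had a log2 change of 0.43 (limma adjusted p = 0.088). The list of 11 genes of signal reception had Ptch1 higher and Gas1, a co-receptor at the cell surface, lower, with a median log2 change of -0.08. Of these 11, 7 had an unadjusted p under 0.05. Ptch1, Hhip and Efcab7 were the higher ones among them, and Gas1, Cdon, Lrp2 and Evc the lower ones. Gas1 (limma adjusted p = 0.0037) did not pass without the block (0.071) or with a pseudocount of 1 (0.091). Of 11 genes for Sufu and other Gli binding partners limma called 0, the unadjusted p was under 0.05 for 0, against 14.9% of all genes, and log2 changes ran from -0.19 to 0.24. The smallest p in that list belonged to Stk36, a kinase named after the fly regulator Fused (log2 change 0.24, adjusted p = 0.357), and to Cep164, a protein of the ciliary base (-0.19, adjusted p = 0.357).

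The arm of cAMP and protein kinase A, through which Gpr161 acts, had 0 of 15 genes past limma's threshold, 2 with an unadjusted p under 0.05 and a median of 0.04. These were the regulatory subunits Prkar2a, with a log2 change of 0.26 (adjusted p = 0.186), and Prkar1a, also 0.26 (adjusted p = 0.192). Each passed in 3 of 11 alternatives. Among 18 genes listed for Gli phosphorylation and proteolysis, mostly kinases and ubiquitin ligase genes, limma called 0. Of the 18, 4 had an unadjusted p under 0.05, and the median log2 change was 0.05. The counts of 2 of 15 and 4 of 18 are near the 14.9% of all genes below that p. Gsk3b, a kinase that phosphorylates Gli after protein kinase A, read 657 ± 168 with Ag1.3 and 529 ± 112 in RA (SD, n = 3 each), a log2 change of 0.30 with adjusted p = 0.208. Gsk3b passed in 1 of 11 alternatives. Csnk1g3, a casein kinase, had a log2 change of 0.22 (limma adjusted p = 0.263) and passed in 0 of 11. Of 12 measured genes listed for the handling of Gpr161 and Smoothened, 1 rose. This was Arrb1, a beta-arrestin that binds activated receptors, at 180, 133 and 77.4 with Ag1.3, against 109, 75.3 and 52.9 in RA. Its groups overlapped across pairs, and each of the 3 pairs was higher with Ag1.3 (log2 change 0.60, SE 0.09, adjusted p = 0.0493). It passed in 5 of 11 alternatives and in 0 of those without 1 pair or without the block.

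**Figure D3:**
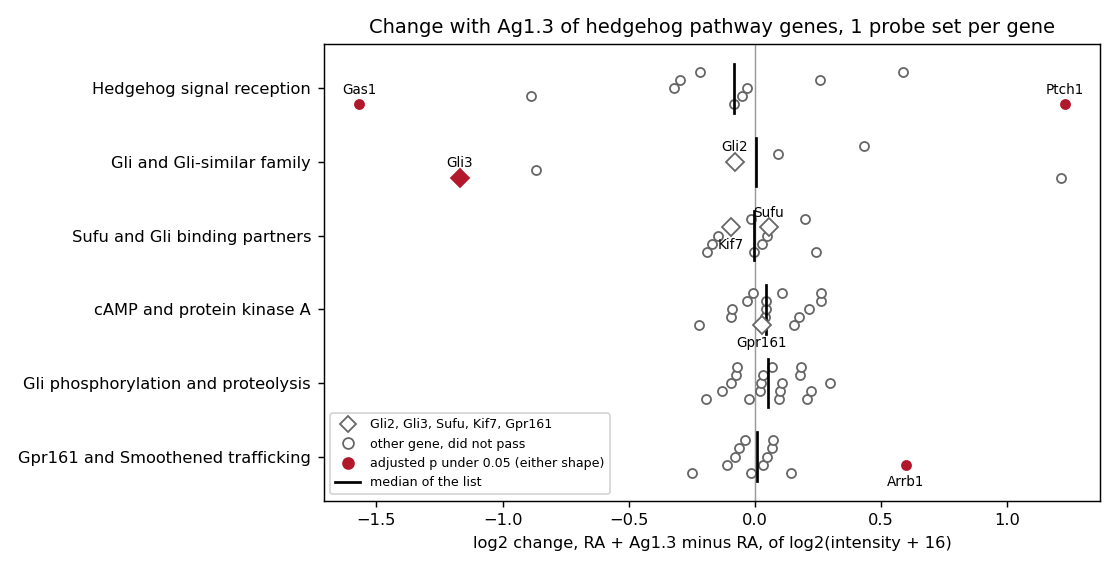
Log2 change with Ag1.3 (RA + Ag1.3 minus RA) of each measured gene in the 6 pathway lists, 1 probe set per gene, with the median of each list as a black line and Gli2, Gli3, Sufu, Kif7 and Gpr161 as diamonds. Filled red symbols passed the threshold, which were Gas1, Ptch1, Gli3 and Arrb1.

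The genes with the pattern most like that of Gli3 were found by Pearson's correlation of log2 values over the 6 arrays, among 9095 other genes with a mean above that of the median gene. They were Gas1 (r = 0.998), Gja1, a gap junction protein (r = 0.989), and Pax3, a transcription factor of dorsal progenitors (r = 0.989). These values join the difference between treatments with differences within them, all arrays share the treatment contrast and the pairs, and the genes were picked for a high r, so they are descriptions. Gas1 read 554, 519 and 359 with Ag1.3, against 1809, 1582 and 1008 in RA. Gja1 read 1124, 1133 and 878 with Ag1.3, against 1790, 1741 and 1375 in RA. Pax3 read 14.7, 12.7 and 6.65 with Ag1.3, against 486, 304 and 109 in RA, the Ag1.3 values being in the range of the unspiked controls. In all 3 genes, as in Gli3 on the probe set chosen for it, the third culture was the lowest of its group under both treatments. Picking genes for a high r favours such a shared order. The neural progenitor genes Sox3, Pax6 and Vim had it too, and so did the neuron genes Elavl4 and Nefm, which rose with Ag1.3. The order was not shared by all neural progenitor markers. Fabp7 was highest in the third culture of both groups, and Sox2 was not lowest there with Ag1.3. The pluripotent cell genes Nanog, Zfp42 and Klf4 were instead highest in the third culture of both groups. On Gli3 probe set 1450525_at the first culture was the lowest of each group, at 218 with Ag1.3 and 279 in RA.

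The other members had other neighbours. Gli2 was nearest to Nudt21 (r = 0.993), Car2 (0.969) and Slc38a3 (0.946), and Sufu to Polr3k (0.998), Pfdn5 (0.998) and Bet1 (0.997). Kif7 was nearest to Fzd10os (0.974), Zfp113 (0.969) and Cenpv (0.968), and Gpr161 to Timm29 (0.997), Gdap10 (0.995) and Arfip2 (0.994). None of these 12 genes passed limma's threshold, and 0 of the 12 was shared between members. Picking for a high r with a member that changed little favours genes that changed little, and few genes were taken per member. Both counts are therefore descriptions.

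**Figure D4:**
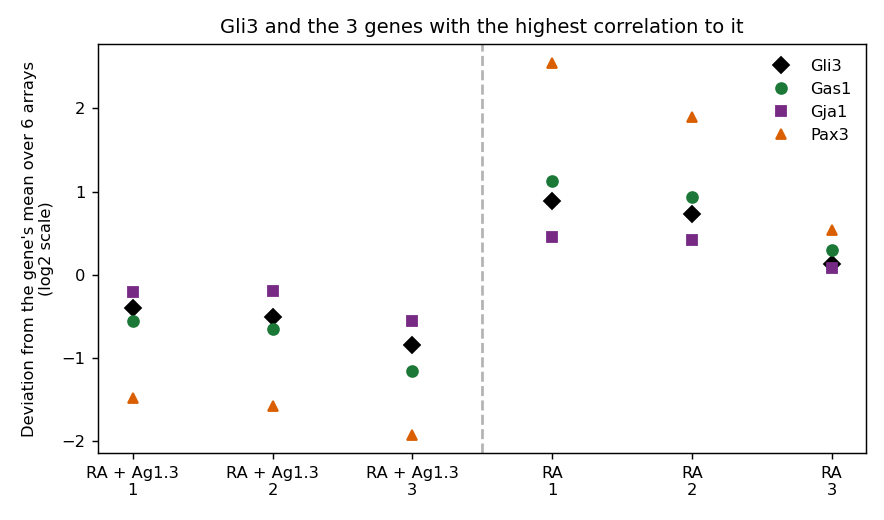
Deviation of Gli3, Gas1, Gja1 and Pax3 from each gene's own mean over the 6 arrays (log2 scale), with RA + Ag1.3 cultures 1 to 3 on the left and RA cultures 1 to 3 on the right. Each gene, on the probe set chosen for it, is below its mean in the Ag1.3 cultures and above it in the RA cultures. The third culture is the lowest of each group.

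In a whole embryoid body, fewer cells that express Gli3 and less Gli3 RNA per cell cannot be told apart, and markers of several cell types moved with Gli3. All 10 neural progenitor markers, which include Sox1, Sox2, Nes and Pax6, read above the unspiked controls in both groups. Of these 10, 1 rose (Notch1), with a median log2 change of 0.15, and their summed intensity was 10936 to 14986 with Ag1.3 and 9543 to 14912 in RA. An unadjusted p under 0.05 in limma's test was reached by 5 of the 10. Notch1, Hes5, Nes and Fabp7 were the higher ones among them, and Pax6 was the lower one (log2 change -0.48, limma adjusted p = 0.0531). For all these marker lists, the shares over all genes were 1.08% that rose, 0.324% that fell and 14.9% with an unadjusted p under 0.05. Of 12 neuron markers 9 rose, with sums of 7114 to 10383 with Ag1.3 and 2360 to 4179 in RA. Of 11 dorsal and intermediate progenitor markers 6 fell, with sums of 689 to 1707 with Ag1.3 and 2414 to 6230 in RA, and Pax3, Pax7 and Gsx1 were in the range of the unspiked controls on all Ag1.3 arrays. All 8 ventral progenitor and floor plate markers rose, with sums of 2671 to 4047 with Ag1.3 and 243 to 412 in RA. Of 8 pluripotent cell markers 1 fell (sums 3062 to 6201 with Ag1.3 and 4906 to 8000 in RA), while all 8 log2 changes were below 0, with a median of -0.65, and 7 had an unadjusted p under 0.05. Of 11 endoderm markers 2 fell (sums 764 to 1747 with Ag1.3 and 1024 to 2178 in RA), with Apoa1 in the range of the unspiked controls throughout. Of 9 mesoderm and neural crest markers limma called 0 (sums 395 to 500.0 with Ag1.3 and 403 to 509 in RA). An unadjusted p under 0.05 was reached by 1 of the 9, near the 14.9% of all genes. Without 1 pair or without the block, 5 neuron markers, 1 to 4 dorsal and intermediate markers and 4 to 7 ventral markers passed. In those fits 0 neural progenitor, pluripotent cell and endoderm markers passed limma's threshold, with an unadjusted p under 0.05 for 1 to 5, 0 to 7 and 1 to 4 of them in that order. The part of these shifts in the Gli3 result was not tested.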

How the data were processed

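Total RNA of each culture was isolated with a mirVana kit, and 2.5 µg went into biotin labelling (3' IVT Express), per the labels' protocols. The deposited values are probe set intensities on a linear scale. How they were summarised and scaled is not given in the sources used here. Array medians are alike, so a shift common to most genes would stay hidden. Of 45101 probe sets, 64 controls were left out. Gene symbols came from the platform annotation, which gave 1 symbol for 34945 probe sets, several for 932 and none for 9160. Each gene was represented by the probe set with the highest mean over all 6 arrays. For Gli3 the RA arrays decided this choice of 1456067_at. With Ag1.3, 1450525_at had the higher mean (283 against 255), and in RA the lower one (311 against 603). Values were transformed to log2(intensity + 16) and tested two-sided with lmFit and eBayes of limma 3.58.1 (R 4.3.3), with the replicate number as a block, over 18193 genes and again over 45037 probe sets, with Benjamini-Hochberg adjustment and a threshold of 0.05. The script was tested on simulated data. The series' design text pairs the cultures by number, and the arrays' deviations from their group's mean had correlations over genes of 0.54, 0.19 and 0.56 for the same numbers and of -0.52 to 0.07 for different ones, where genes are not independent replicates. Whether the cultures were started on separate days is not given in the sources used here. With the block, p-values rest on how the treatment difference varied between these pairs, with variances moderated over all genes. With 6 arrays, their number limits the precision.

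The members and the gene lists were chosen with earlier results of these data known. The rule for naming genes took all members, up to 4 genes past the threshold in each list or the 2 with the smallest p, Gli1 and Ptch1, and the 3 genes most correlated with each member. Only some of the genes named by that rule in the marker lists are printed. Of the names in the lists, 9 were not analysed here. Alternatives changed the pseudocount, block, moderation, filter, scaling, probe set choice and pairs.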

Additional observations from a re-analysis of the deposited data

How the results depend on the processing

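Of 12 alternatives for Gli3, 8 kept the call and 12 kept the direction, with log2 changes from -1.35 to -0.83. Adjusted p was 0.125 for Gli3 with no replicate block (log2 change -1.17) and 0.12 with a pseudocount of 1 (log2 change -1.22), and the log2 change was -1.26 to -1.11 when 1 pair was left out. Gli2 and Kif7 kept their direction and stayed outside the threshold in all 12. The Sufu change turned to -0.13 with scaling to the hybridization spikes, -0.0079 with the mean of all probe sets and -0.024 to 0.10 without 1 pair, and the Gpr161 change to -0.14 with the spikes and -0.038 to 0.067 without 1 pair, none of them past the threshold. Spike scaling moved the median over all genes to -0.16, from which the Sufu and Gpr161 values differ little. The Gli3 minus Gli2 difference lay between -1.22 and -0.79 over 8 alternatives, and the gap between Gli3 probe sets, with alternatives chosen after seeing the data, between 0.92 and 1.09.

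The number of genes past the threshold was 256 (77% higher). It was 0 with a pseudocount of 1 in limma's test (2412 at an unadjusted p under 0.05), 819 with a pseudocount of 64, 87 with no replicate block, 888 with a moderation that follows intensity, 904 above the median gene, 1666 with spike scaling (17.2% higher) and 40 to 68 without 1 pair. For probe sets it was 232 (82.8% higher), and in the same order 0 (4601 at an unadjusted p under 0.05 in limma's test), 839, 108, 1118, 1155, 1539 (24.2% higher) and 0 to 12 without 1 pair (3027 to 5969 at an unadjusted p under 0.05). The cause of these shifts was not tested, except that leaving out a pair leaves fewer arrays. Low signal limits the second Gpr161 probe set.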
